A study of Homo sapiens with 8 samples.

Results

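Aminoacyl-tRNA synthetases are the enzymes that attach each amino acid to its tRNA. Their genes were taken by name: 35 of the 62703 genes in the count table. Of these, 19 encode enzymes of the cytosol (symbols with no number or with 1) and 16 encode enzymes of the mitochondrion (symbols with 2). They were measured in HepaRG, a human hepatic cell line, supplied as terminally differentiated cells, cultured for 7 days and then treated for 24 h. The treated groups were rotenone at 0.2 and 0.4 µM, cycloheximide at 0.2, 2 and 20 µM, tunicamycin at 0.001, 0.01 and 0.1 µM, brefeldin A at 0.001, 0.01 and 0.1 µM, etoposide at 0.25, 2.5 and 25 µM, tert-butylhydroquinone (tBHQ) at 3, 30 and 300 µM and troglitazone at 50 µM, a dose that stands in the cell table while the labels list lower ones. Cells named as medium and cells in 0.1% DMSO, the vehicle of all chemicals, were the controls. All groups were dissociated in a mix that held actinomycin D and anisomycin, which block transcription and translation.

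Cytosolic synthetases charge the tRNAs that the ribosomes of the cytosol use, and several of them sit together in a multisynthetase complex. Mitochondrial synthetases are encoded in the nucleus, imported, and charge the tRNAs of the mitochondrial genome. Many cytosolic synthetase genes are known targets of ATF4, a transcription factor that is translated more when eIF2α kinases sense amino acid shortage or stress of the endoplasmic reticulum or mitochondria. GARS1 and KARS1 are counted here as cytosolic, although each encodes both the cytosolic and the mitochondrial enzyme. EPRS1 joins the glutamyl and prolyl enzymes in 1 protein, and FARSA and FARSB encode the subunits of the phenylalanyl enzyme.

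ATF4 is known to bind a composite C/EBP-ATF element whose core can be written TGATGNAA. Both strands of the RefSeq promoter windows (250 bases before to 50 after each start) were searched for these letters. They occurred in 7 of 16 cytosolic members with a window and in 1 of 14 mitochondrial ones, and in 4.46% of the 27305 genes in the table. The stricter TGATGCAA, which is contained in the first motif, occurred in 6 cytosolic members, in 0 mitochondrial members and in 1.08% of all genes. A match is a description of the letters and not of binding. The 30 bases around each match are shown because most of these genes recur in the results, on the gene's strand with the match in capitals:
AARS1: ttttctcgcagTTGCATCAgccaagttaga
CARS1: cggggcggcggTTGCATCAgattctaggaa
GARS1: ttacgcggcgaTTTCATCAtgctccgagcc
IARS1: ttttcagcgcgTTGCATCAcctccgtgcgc
MARS1: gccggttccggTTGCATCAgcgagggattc
NARS1: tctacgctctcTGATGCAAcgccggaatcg
TARS1: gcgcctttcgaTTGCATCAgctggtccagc
YARS2: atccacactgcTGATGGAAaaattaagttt
These windows lie (GRCh38.p14) at chr16:70289675-70289704 (minus strand) for AARS1, chr11:3057407-3057436 (minus) for CARS1, chr7:30594834-30594863 (plus) for GARS1 and chr9:92293692-92293721 (minus) for IARS1. They lie at chr12:57488053-57488082 (plus) for MARS1, chr18:57621804-57621833 (minus) for NARS1, chr5:33440956-33440985 (plus) for TARS1 and chr12:32756076-32756105 (minus) for YARS2. Counted from the transcription start, the first base of the match is at -187 in AARS1, -33 in GARS1, -13 in IARS1, -4 in MARS1, -2 in CARS1 and -197 in YARS2, and after the start, at 3 in TARS1 and 15 in NARS1. Windows of YARS1, VARS1, LARS1, AARS2 and VARS2 were not analysed here.

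The sums per sample rest on 38 sample names in 20 conditions, with 37 to 1434 cells and 1741603 to 97081214 UMIs each. DMSO was held in 4 samples (runs 3, 4, 5 and 6 of the sample names). The methods describe 1 treated culture per condition and no source defines the runs, so the spread between samples, and with it every p-value, may be technical. The run 4 samples of DMSO, troglitazone and 0.2 µM cycloheximide stood apart, with medians of 2.47%, 3.38% and 1.31% mitochondrial UMIs per cell, against 8.03% to 25.7% in the other samples. Rotenone samples of run 5 had medians of 184830 (0.2 µM) and 184480 (0.4 µM) UMIs per cell, against 79381 in DMSO of run 5. Hepatocyte markers (5 genes) summed to 2235 to 21084 CPM per sample, led by ALB at 1066 to 16059 CPM, with ARG1 at 0 in 2 of 38 samples. Markers of other cell types were measured too, with sums of 29.1 to 190 CPM for mesenchymal or stellate, 23.2 to 145 for cholangiocyte, 20.1 to 96.9 for endothelial and 7.46 to 32.0 for immune markers. Markers of proliferating cells (MKI67 and TOP2A) varied widely, with sums of 6.71 to 823 CPM over all samples and 48.8 to 531 CPM within DMSO. Within these lists COL3A1, KDR, KRT19 and CD68 were at 0 in no sample (medians of 48.1, 58.7, 73.8 and 19.3 CPM), while COL1A2 was at 0 in 30 samples, LYZ in 11, VWF in 3 and PTPRC in 2.

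**Figure D1:**
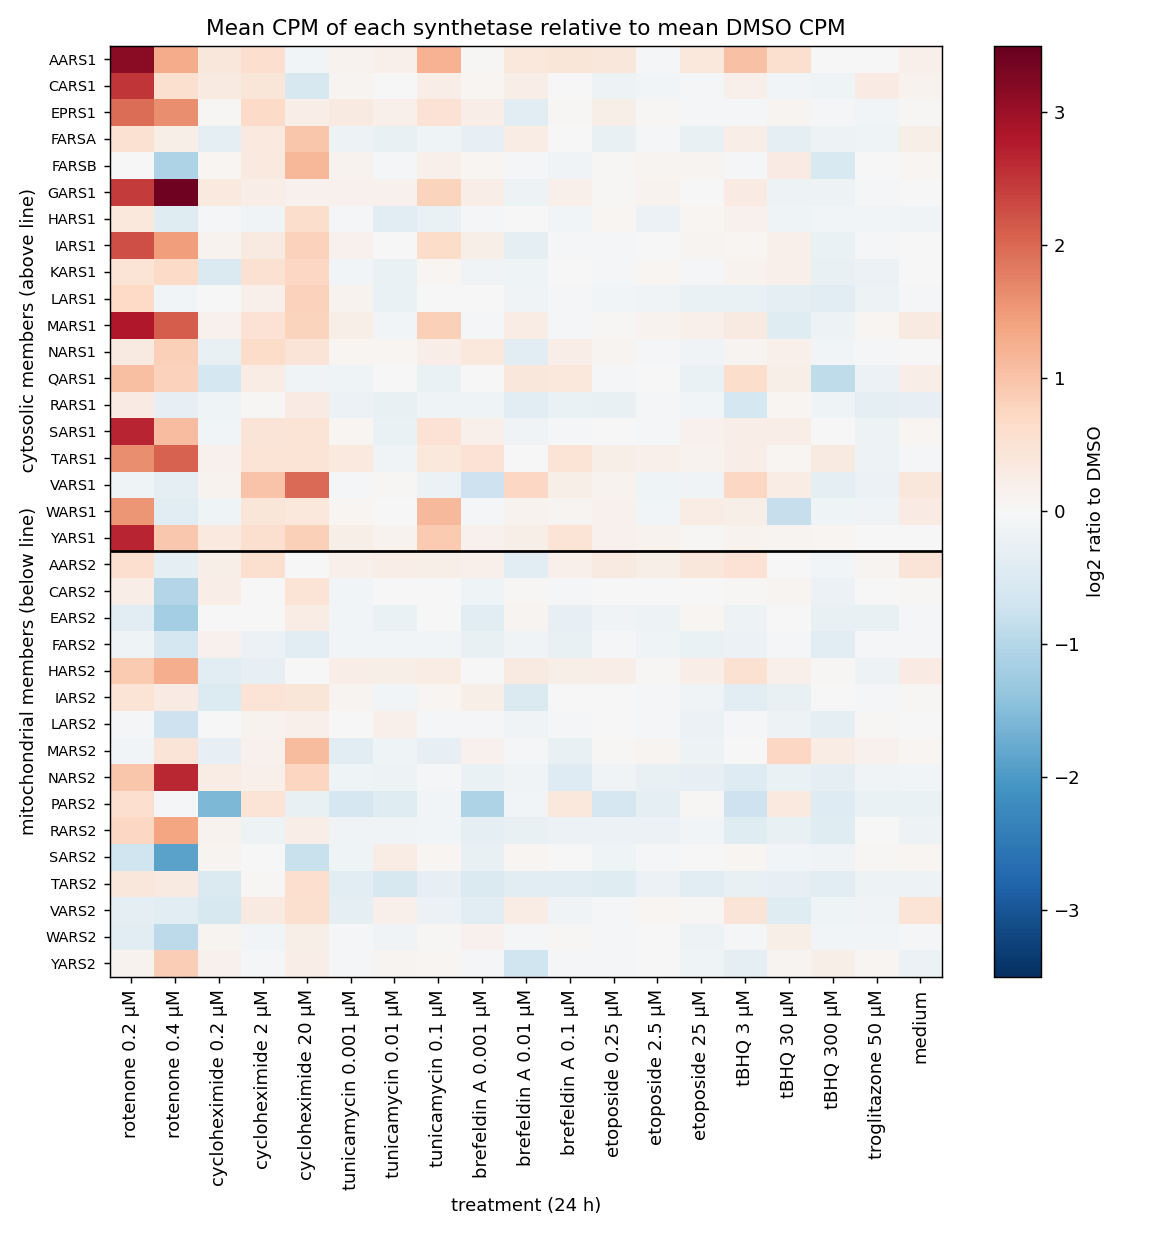
Log2 ratio of the mean CPM in each treatment (columns) to the mean DMSO CPM for the 35 synthetase genes (rows, cytosolic above the line). Colour is strongest in the columns of rotenone, and fainter at 20 µM cycloheximide and 0.1 µM tunicamycin.

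Rotenone, an inhibitor of mitochondrial complex I, raised most cytosolic synthetases at 0.4 µM. Of 19 cytosolic members, 11 rose and 1 fell. Of 16 mitochondrial members, 4 rose and 5 fell. All 35 members passed the filter on low counts, and over all 19831 genes tested 19.1% rose and 42.2% fell, 61.4% in all (edgeR, adjusted p under 0.05). The median log2 fold change was 0.78 over the cytosolic members and -0.18 over the mitochondrial ones, beside -0.56 over all genes tested. Without GARS1 and KARS1, whose products serve both compartments, 9 of 17 cytosolic members rose. The summed level of the cytosolic members was 2472 and 2239 CPM in the rotenone samples, against 964, 952, 896 and 969 CPM in DMSO. The summed level of the mitochondrial members was 792 and 637 CPM in rotenone, against 547, 655, 539 and 561 CPM in DMSO, so the mitochondrial sums overlapped and the cytosolic ones did not.

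GARS1, the glycyl-tRNA synthetase, had 707 and 719 CPM in the rotenone samples of runs 5 and 6, against 68.0, 74.3, 58.4 and 66.2 CPM in DMSO of runs 3, 4, 5 and 6. Both rotenone samples were far above every DMSO sample. This was a 10.7-fold rise (log2 3.42 ± 0.20 SE, edgeR adjusted p = 4.51e-07), the largest among the members. MARS1, the methionyl enzyme, had 118 and 143 CPM in rotenone, against 29.2, 29.6, 29.4 and 32.4 CPM in DMSO (4.34-fold, log2 2.12 ± 0.19 SE, edgeR adjusted p = 2.55e-06). Its DMSO samples lay within a narrow band that neither rotenone sample approached. TARS1, the threonyl enzyme, had 139 and 196 CPM in rotenone, against 41.8, 34.2, 43.5 and 39.4 CPM in DMSO (log2 2.07 ± 0.20 SE). Here the rotenone sample of run 6 was the higher one, and again no values overlapped.

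MARS1 belongs to the multisynthetase complex. Of 7 members known as its components, 5 rose (MARS1, EPRS1, IARS1, KARS1 and QARS1), while LARS1 (log2 -0.09, edgeR adjusted p = 0.746) and RARS1 (log2 -0.26, edgeR adjusted p = 0.322) did not pass. EPRS1 had 229 and 159 CPM in rotenone, against 78.0, 54.7, 51.0 and 65.8 CPM in DMSO (log2 1.64 ± 0.23 SE). IARS1, the isoleucyl enzyme, had 383 and 260 CPM in rotenone, against 131.6, 125, 96.7 and 113 CPM in DMSO (log2 1.47 ± 0.22 SE). Both were lower in run 6 than in run 5 of rotenone, yet above all DMSO samples. KARS1, the lysyl enzyme of cytosol and mitochondrion, had 55.5 and 45.8 CPM in rotenone, against 32.4, 29.8, 31.9 and 33.8 CPM in DMSO (log2 0.66 ± 0.20 SE, edgeR adjusted p = 0.0116). QARS1, the glutaminyl enzyme, had 55.7 and 70.2 CPM in rotenone, against 26.6, 26.6, 55.6 and 36.3 CPM in DMSO (log2 0.78 ± 0.29 SE, edgeR adjusted p = 0.0335). Its rotenone sample of run 5 was level with DMSO of run 5, and the call was lost when any 1 of 5 of the 6 samples was left out. The KARS1 call was lost without rotenone replicate 1 (run 5).

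Outside the complex, AARS1, the alanyl enzyme, had 76.9 and 68.7 CPM in rotenone, against 29.5, 25.5, 35.9 and 27.4 CPM in DMSO (log2 1.29 ± 0.21 SE). SARS1, the seryl enzyme, had 71.9 and 64.5 CPM in rotenone, against 41.3, 26.3, 32.0 and 28.2 CPM in DMSO (log2 1.08 ± 0.22 SE). In both genes the rotenone samples were close together and did not meet the DMSO samples. YARS1, the tyrosyl enzyme, had 82.8 and 70.4 CPM in rotenone, against 38.4, 43.9, 37.6 and 38.4 CPM in DMSO (log2 0.96 ± 0.19 SE). NARS1, the asparaginyl enzyme, had 162 and 166 CPM in rotenone, against 104, 72.9, 75.9 and 113 CPM in DMSO (log2 0.84 ± 0.22 SE, edgeR adjusted p = 0.00539). DMSO varied more in NARS1 than in YARS1, without reaching the rotenone samples.

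FARSB was the cytosolic member that fell. It had 29.2 and 15.4 CPM in rotenone, against 47.7, 50.6, 39.2 and 50.8 CPM in DMSO (log2 -1.05 ± 0.27 SE, edgeR adjusted p = 0.00522). Both rotenone samples were under all DMSO samples, although this fall did not pass the threshold under TMM or DESeq2 scaling. WARS1, the tryptophanyl enzyme, had 20.2 and 13.6 CPM in rotenone, against 23.9, 19.0, 22.6 and 21.2 CPM in DMSO (log2 -0.35 ± 0.25 SE, edgeR adjusted p = 0.235). The groups overlapped, and the sign turned to 0.10 under TMM and 0.15 under DESeq2. The other cytosolic members that did not pass were CARS1, FARSA, HARS1, LARS1, RARS1 and VARS1, with log2 fold changes between -0.40 and 0.59.

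Mitochondrial synthetases went both ways at 0.4 µM rotenone. NARS2, the mitochondrial asparaginyl enzyme, had 207 and 179 CPM in rotenone, against 30.5, 34.2, 24.2 and 35.9 CPM in DMSO. This was a 6.25-fold rise with no overlap (log2 2.64 ± 0.21 SE, edgeR adjusted p = 1.42e-06), while its cytosolic counterpart NARS1 rose by 0.84 on the log2 scale. RARS2, the arginyl enzyme, had 165 and 152 CPM in rotenone, against 58.6, 73.7, 51.1 and 61.0 CPM in DMSO (log2 1.38 ± 0.20 SE). Its cytosolic counterpart RARS1 did not pass the threshold (log2 -0.26 ± 0.22 SE). HARS2, the histidyl enzyme, had 17.1 and 24.5 CPM in rotenone, against 8.29, 8.49, 7.84 and 9.75 CPM in DMSO (log2 1.27 ± 0.26 SE). HARS2 and HARS1 overlap by 108 bases on opposite strands of chromosome 5, so reads there may be shared between them. YARS2, the tyrosyl enzyme, had 14.2 and 20.3 CPM in rotenone, against 9.80, 10.2, 8.50 and 9.55 CPM in DMSO (log2 0.86 ± 0.26 SE), a call that was lost without rotenone replicate 2 (run 6).

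The mitochondrial falls were led by SARS2, the seryl enzyme, with 2.86 and 2.24 CPM in rotenone, against 10.5, 9.95, 10.8 and 5.81 CPM in DMSO (log2 -1.84 ± 0.35 SE, edgeR adjusted p = 0.000664). Its cytosolic counterpart SARS1 rose, so the seryl pair moved apart in the same samples. The run 6 value of SARS2 rests on 16 UMIs. EARS2, the glutamyl enzyme whose product is also made into glutaminyl-tRNA in mitochondria, had 9.11 and 4.76 CPM in rotenone, against 13.9, 18.7, 13.5 and 16.8 CPM in DMSO (log2 -1.11 ± 0.32 SE). CARS2, the cysteinyl enzyme, had 34.9 and 25.6 CPM in rotenone, against 61.5, 66.7, 61.6 and 55.4 CPM in DMSO (log2 -1.01 ± 0.22 SE). No rotenone sample of these genes reached a DMSO sample. Without rotenone replicate 2 (run 6) 3 mitochondrial members fell, EARS2 and LARS2 no longer passing. WARS2 (log2 -0.89 ± 0.23 SE) and LARS2 (log2 -0.71 ± 0.24 SE), the tryptophanyl and leucyl enzymes, also fell. The members AARS2, FARS2, IARS2, MARS2, PARS2, TARS2 and VARS2 did not pass, with log2 fold changes between -0.60 and 0.48.

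**Figure D2:**
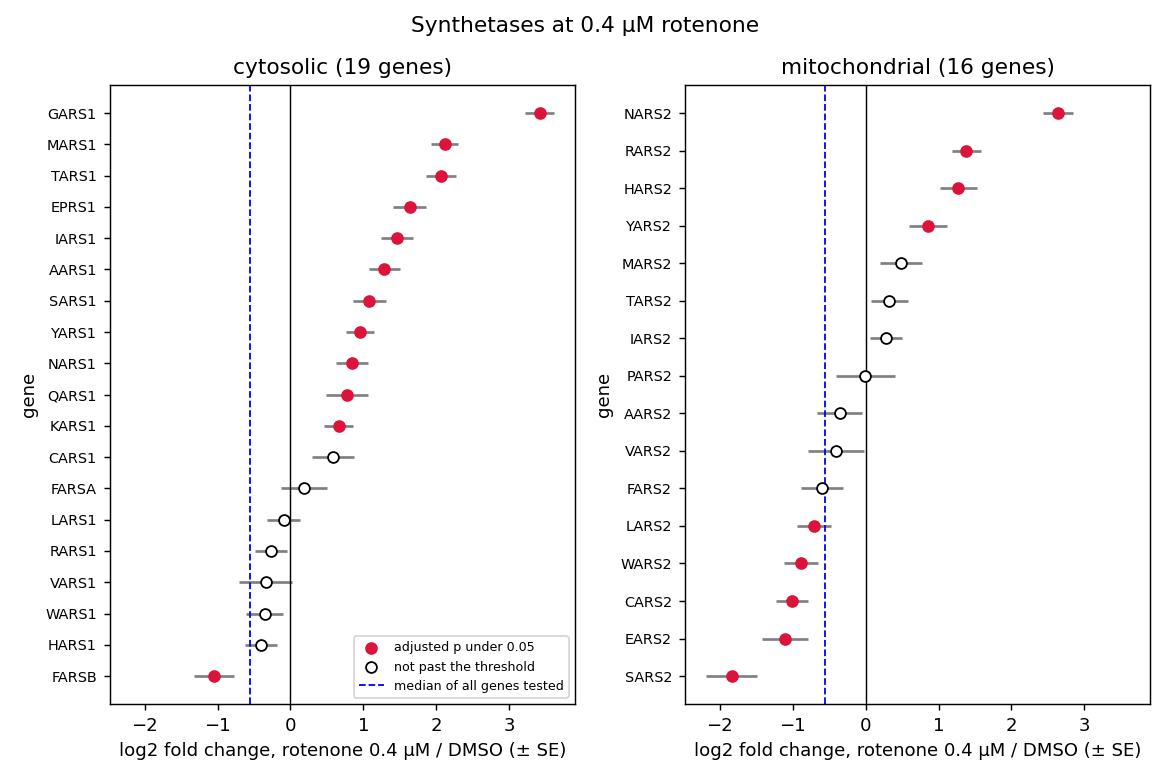
Log2 fold change of each member at 0.4 µM rotenone over DMSO with its standard error (edgeR, 2 against 4 samples), cytosolic members left and mitochondrial members right, with the median of all genes tested as a dashed line. Of the cytosolic members 11 lie above 0 past the threshold, while the mitochondrial members reach past it on both sides.

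The scale mattered for the mitochondrial falls. Under TMM scaling the median of all genes at 0.4 µM rotenone was -0.10 on the log2 scale in place of -0.56, and 5570 genes rose and 6078 fell, against 3794 and 8373 as scaled by total counts. With TMM, 12 cytosolic and 7 mitochondrial members rose and 0 and 2 fell. Gene length moved with the same shift. Genes that span over 100 kb had a median log2 fold change of -0.97 (4539 genes), against -0.45 for spans of 10 to 100 kb (11248 genes). Of the members over 100 kb, NARS2 rose, LARS2 and WARS2 fell and FARS2 did not pass, and the part of gene length in these changes was not tested.

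Within runs, the comparison with DMSO of the same run gave similar values for the leading members. GARS1 was higher by 3.60 (run 5) and 3.44 (run 6) on the log2 scale, and NARS2 by 3.10 and 2.32. SARS2 gave -1.92 and -1.38. Over the class, 14 (run 5) and 13 (run 6) of 19 cytosolic members were higher in rotenone than in DMSO of the same run, and 7 and 9 of 16 mitochondrial members. Counts summed over the cells of a sample do not separate fewer cells of a type from less RNA per cell. Cells were not split by type here. Mesenchymal or stellate markers (5 genes) summed to 29.1 to 31.2 CPM in rotenone, against 76.5 to 190 CPM in DMSO. Endothelial markers (3 genes) summed to 50.1 to 51.8 CPM, against 54.7 to 96.4 CPM. Sums of the other marker lists overlapped DMSO. Of the tested markers, 3 of 4 mesenchymal, 1 of 2 endothelial, 2 of 5 hepatocyte and 1 of 4 cholangiocyte genes fell, beside 42.2% of all genes. PTPRC, an immune marker, rose (log2 2.29), but from a very low level, with means of 0.212 CPM in DMSO and 1.08 CPM in rotenone. CD68, the other immune marker tested, did not pass (log2 -0.29, edgeR adjusted p = 0.582). The part of cell types in the result was not tested.

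At 0.2 µM rotenone, held in 1 sample of run 5 and so described without a test, most cytosolic synthetases were higher than in DMSO. Of 19 cytosolic members 11 were at least 2-fold higher, and 0 of 13 mitochondrial members that reached the minimum of 10 CPM and 50 UMIs. Among all 11854 genes past the minimum, 17.4% were at least 2-fold higher and 37.3% changed 2-fold in either direction. The median log2 ratio was 1.55 over cytosolic and 0.18 over mitochondrial members, beside 0.15 over all genes. The sample was above the highest DMSO sample for 17 cytosolic and 8 mitochondrial members, beside 44.5% of all genes, and below the lowest for 0 and 2, beside 35.2%. NARS2 and HARS2 had the largest mitochondrial ratios, with 0.97 and 0.91 on the log2 scale. Against DMSO of run 5 alone, a comparison chosen after seeing the data, both passed 2-fold (log2 1.34 and 1.04) and VARS2 was 2-fold lower (log2 -1.14). There 11 cytosolic members were again 2-fold higher, with LARS1 (log2 1.06) in and QARS1 (log2 0.43) out. In this comparison 16.1% of all genes past the minimum were 2-fold higher and 20.0% were 2-fold lower. Marker sums in the 0.2 µM sample were below all DMSO samples for hepatocyte (7941.5 against 8573 to 21084 CPM) and cholangiocyte markers (66.9 against 93.3 to 145). The same held for mesenchymal or stellate (33.4 against 76.5 to 190) and endothelial markers (20.1 against 54.7 to 96.4). Immune and proliferating sums lay within the DMSO range. The part of cell types was not tested here either.

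AARS1 was the member with the largest ratio at 0.2 µM rotenone, with 262 CPM, against 29.5, 25.5, 35.9 and 27.4 CPM in DMSO. This is 8.86-fold (log2 3.15, 95% interval 3.08 to 3.22, counting error only). MARS1 had 209 CPM, against 29.2 to 32.4 CPM in DMSO (log2 2.80, 2.72 to 2.87). Neither level came near any DMSO sample. SARS1 had 202 CPM, against 26.3 to 41.3 CPM in DMSO (log2 2.66, 2.59 to 2.73). YARS1 had 249 CPM, against 37.6 to 43.9 CPM in DMSO (log2 2.65, 2.59 to 2.72). CARS1, GARS1, IARS1, EPRS1, TARS1, WARS1 and QARS1 were the other members past 2-fold against the mean of DMSO, with log2 ratios of 2.49, 2.45, 2.25, 1.95, 1.62, 1.55 and 1.04. FARSB and VARS1 stayed within the DMSO range.

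The doses did not rank the members alike. Of 19 cytosolic members, 15 were higher at 0.2 µM than in both samples at 0.4 µM and 4 were lower (GARS1, KARS1, NARS1 and TARS1). Of 16 mitochondrial members, 10 were higher, 5 were lower (HARS2, MARS2, NARS2, RARS2 and YARS2) and 1 lay between. Over all 19831 genes tested at 0.4 µM, 50.6% were higher and 32.4% were lower in this sense. GARS1 had 365 CPM at 0.2 µM and 707 and 719 CPM at 0.4 µM. AARS1 ran the other way, with 262 CPM at 0.2 µM and 76.9 and 68.7 CPM at 0.4 µM. WARS1 had 63.5 CPM at 0.2 µM and 20.2 and 13.6 CPM at 0.4 µM, so it was above DMSO at the lower dose and level with or under it at the higher dose. NARS2 had 61.1 CPM at 0.2 µM and 207 and 179 CPM at 0.4 µM. With 1 sample at 0.2 µM the difference between the doses was not tested.

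**Figure D3:**
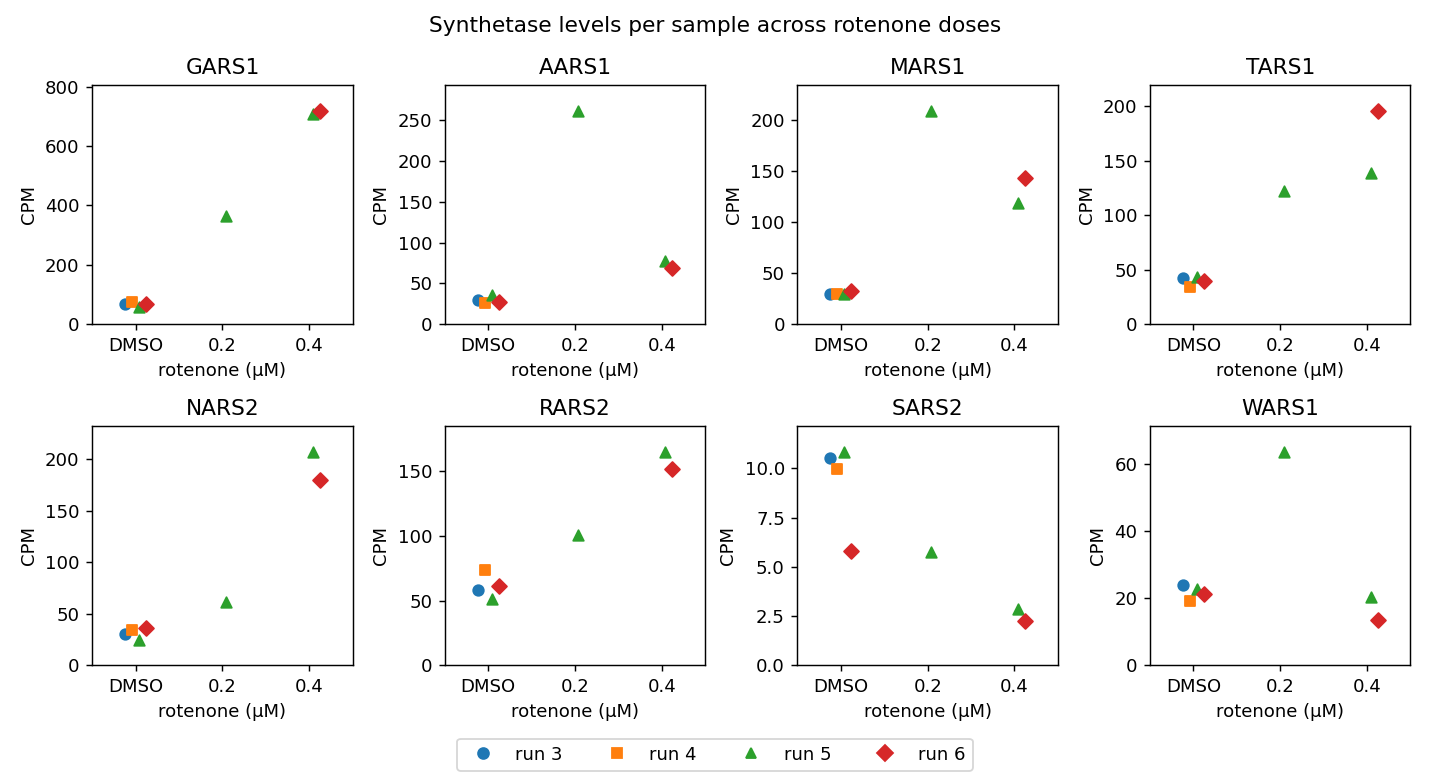
CPM per sample (points, marked by run) of 8 synthetase genes in DMSO and at 0.2 and 0.4 µM rotenone. GARS1, TARS1, NARS2 and RARS2 are highest at 0.4 µM, whereas AARS1, MARS1 and WARS1 are highest at 0.2 µM and SARS2 is lowest at 0.4 µM.

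The levels were also higher per cell. With each cell thinned to 20000 UMIs, the median cell had 62.0 cytosolic synthetase UMIs at 0.2 µM rotenone (quartiles 52.0 and 70.0), and 45.0 and 40.0 at 0.4 µM in runs 5 and 6. The medians in DMSO were 18.0, 18.0, 16.5 and 19.0. At 0.4 µM the lower quartiles, 31.0 and 25.0, were at or above the highest upper quartile of a DMSO sample, 25.0, and the spread over cells was wider than in DMSO. Thinning left out 8 (0.2 µM), 23 and 15 (0.4 µM) cells, against 71, 73, 35 and 18 cells in DMSO. Without thinning the medians were 3130 CPM at 0.2 µM and 2206 and 1868 CPM at 0.4 µM, against 848 to 949 CPM in DMSO.

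**Figure D4:**
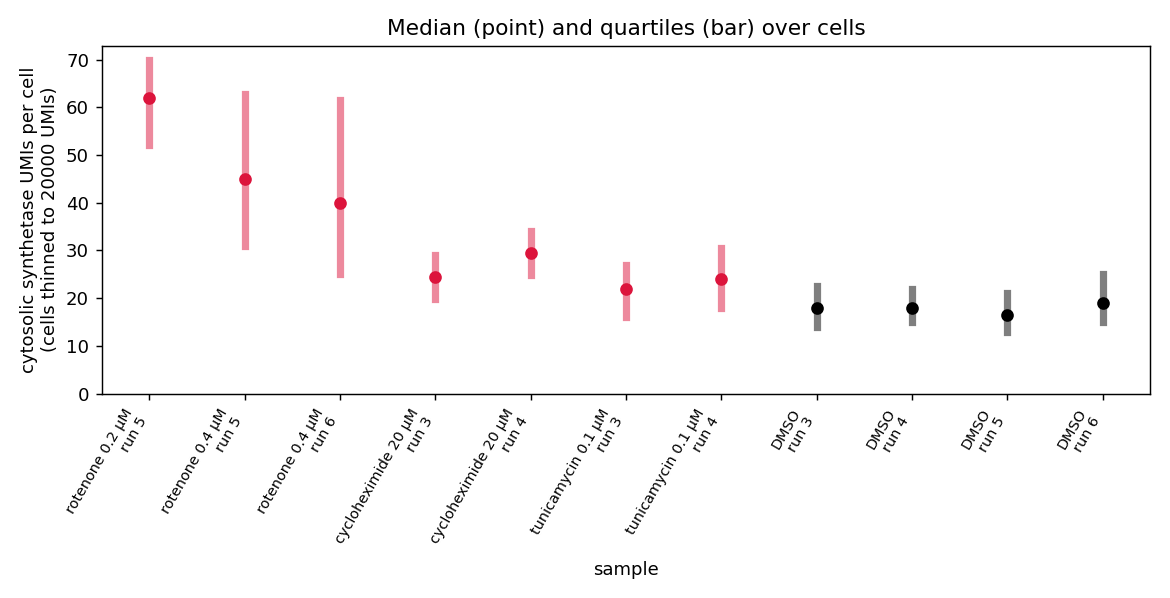
Cytosolic synthetase UMIs per cell after thinning to 20000 UMIs, as the median (point) and quartiles (bar) over the cells of each sample, treated samples left and DMSO right. Medians are 40.0 to 62.0 in rotenone, 22.0 to 29.5 in 20 µM cycloheximide and 0.1 µM tunicamycin, and 16.5 to 19.0 in DMSO.

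Genes that work beside the synthetases were mixed at 0.4 µM rotenone. Among ATF4 and 9 of its known targets with roles in amino acid supply and stress, 8 of 10 rose and 0 fell, among them ATF4 itself (log2 2.77), ASNS, asparagine synthetase (log2 3.01), and SLC7A11, the cystine transporter (log2 3.14). DDIT3 and SHMT2 did not pass. The scaffold genes of the multisynthetase complex, AIMP1, AIMP2 and EEF1E1, gave 0 of 3 calls, with log2 fold changes of -0.07, -0.33 and -0.11. Of the mitochondrial genes for amidating glutamyl-tRNA to glutaminyl-tRNA or formylating methionyl-tRNA, QRSL1 (log2 -1.04) and MTFMT (log2 -1.09) fell. GATB and GATC did not pass. Of 7 genes of tRNA end maturation 2 rose and 3 fell, of 3 for selenocysteine tRNA 2 fell, and of 5 editing and synthetase-like genes 1 rose and 2 fell, beside 19.1% and 42.2% of all genes.

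Cycloheximide, which blocks elongation by cytosolic ribosomes, raised some cytosolic synthetases at 20 µM. Of 19 cytosolic members 6 rose, of 16 mitochondrial members 1 did (NARS2), and 0 fell. Over all 18706 genes tested 6.52% rose and 13.2% fell, 19.7% in all (edgeR), 1220 against 2474 genes. With DESeq2 it was 1653 against 2181, and its median of all genes was -0.01. The median log2 fold change was 0.48 over cytosolic members and 0.22 over mitochondrial members, beside -0.12 over all genes. The runs differed in this. Against DMSO of run 3 the cytosolic median was 0.16 (12 of 19 higher) and the mitochondrial median 0.22 (11 of 16 higher). Against DMSO of run 4 they were 0.81 (18 of 19 higher) and 0.002 (9 of 16 higher). The summed cytosolic level was 1205 and 1651 CPM in runs 3 and 4 of cycloheximide, against 964, 952, 896 and 969 CPM in DMSO.

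VARS1, the valyl enzyme, had 75.2 and 94.7 CPM at 20 µM cycloheximide, against 14.7, 16.4, 36.9 and 17.4 CPM in DMSO (log2 1.95 ± 0.33 SE, edgeR adjusted p = 0.00195). DMSO of run 5 stood above the other DMSO samples in this gene, and still under both treated samples. FARSB had 101 and 109 CPM, against 47.7, 50.6, 39.2 and 50.8 CPM in DMSO (log2 1.16 ± 0.19 SE, edgeR adjusted p = 0.00178). It had fallen at 0.4 µM rotenone. LARS1, the leucyl enzyme, had 173 and 234 CPM, against 104, 137, 90.2 and 130.3 CPM in DMSO (log2 0.82 ± 0.22 SE). YARS1 had 61.1 and 80.3 CPM, against 38.4, 43.9, 37.6 and 38.4 CPM in DMSO (log2 0.83 ± 0.20 SE). IARS1 (log2 0.79), NARS2 (0.77) and MARS1 (0.76) were the other members that rose. GARS1, which led in rotenone, gave a log2 fold change of 0.15 ± 0.20 SE.

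These calls rested on few cells, since the run 4 sample held 37. Without the 20 µM sample of run 4 (replicate 2 of its name) 3 members were called, 2 of them (VARS1 and FARSB) among the 7, and without DMSO of run 3 (replicate 2) 4 of the 7 were. NARS2 was also lost without the 20 µM sample of run 3 or DMSO of run 5 (replicate 4). The ATF4 list did not rise here: 1 of 9 tested genes rose (ATF4, log2 1.11) and 2 fell (DDIT3 and PSAT1). Of the scaffold genes, AIMP1 (log2 0.73) and AIMP2 (log2 0.77) rose. All 5 hepatocyte markers fell, beside 13.2% of all genes. Their sum was 2235 to 5334 CPM at 20 µM, against 8573 to 21084 CPM in DMSO. Sums of cholangiocyte (23.2 to 50.3 CPM), mesenchymal or stellate (48.7 to 64.5) and endothelial markers (26.65 to 35.3) were also below all DMSO samples. DMSO had 93.3 to 145, 76.5 to 190 and 54.7 to 96.4 CPM in that order. Immune and proliferating sums overlapped DMSO. KRT7 (log2 2.16, up to 4.28 CPM) and PDGFRB (log2 1.57) rose. The part of cell types was not tested.

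At 0.2 and 2 µM cycloheximide 0 members were called, beside 0% and 0.00502% of all genes. At 2 µM 7 cytosolic members had an unadjusted p under 0.05, all with higher levels, and 0 mitochondrial members did, beside 7.31% of all genes. At 0.2 µM 1 cytosolic and 1 mitochondrial member did, both with lower levels, beside 3.74% of all genes. DESeq2 also gave 0 calls at both doses. Between doses, 0 members passed for 2 against 0.2 µM (0.00552% of all genes) and for 20 against 2 µM (2.16% of all genes) in edgeR. In these steps 6 and 5 of 35 members had an unadjusted p under 0.05, beside 5.75% and 17.2% of all genes. VARS1 had 32.4 and 13.8 CPM at 0.2 µM, 48.5 and 36.7 CPM at 2 µM and 75.2 and 94.7 CPM at 20 µM.

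**Figure D5:**
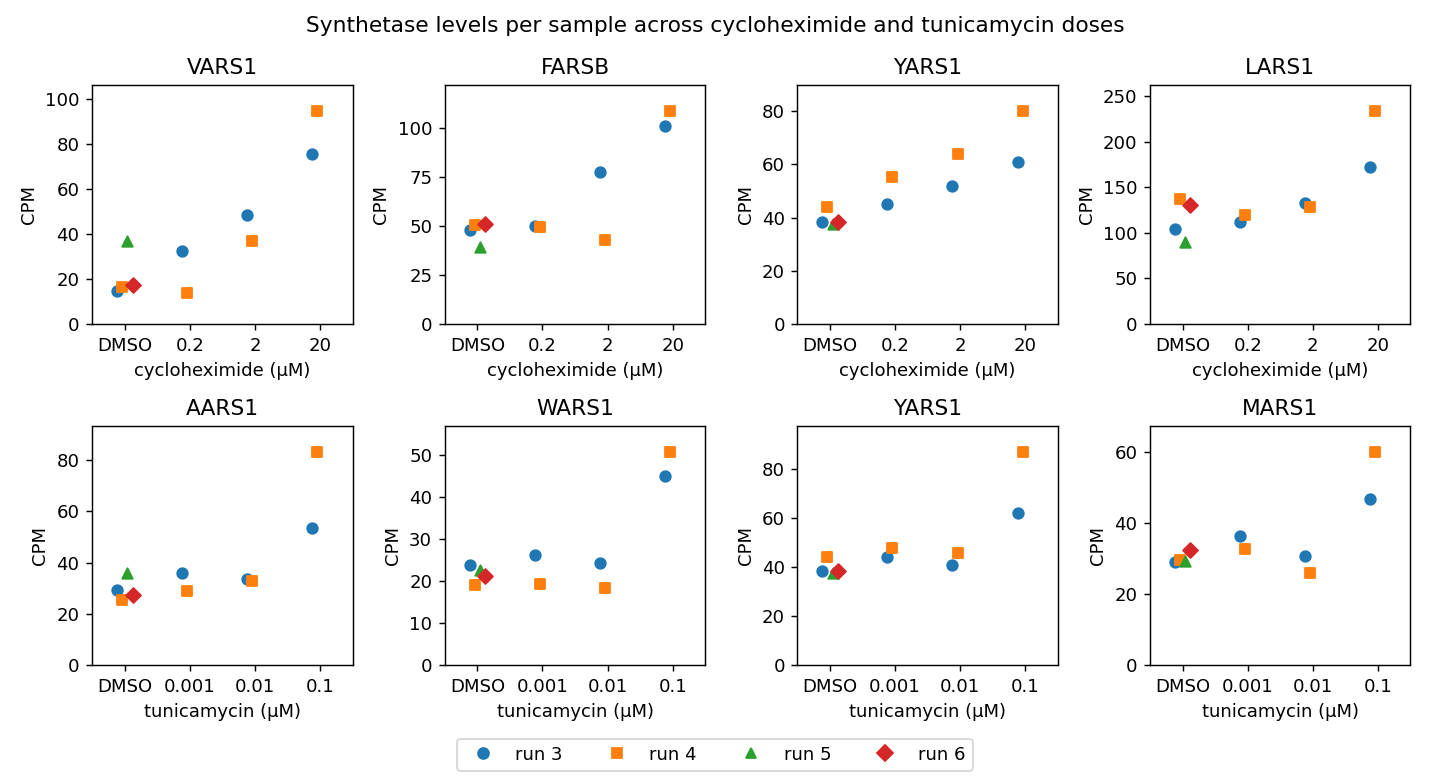
CPM per sample (points, marked by run) of 4 members across DMSO and 3 cycloheximide doses (upper row) and of 4 members across DMSO and 3 tunicamycin doses (lower row). At the highest dose of each chemical both treated samples lie above all DMSO samples in every panel.

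Tunicamycin blocks N-glycosylation and so stresses the endoplasmic reticulum. At 0.1 µM 0 of 35 members passed the edgeR test (0.00538% of all genes did), while 8 members had an unadjusted p under 0.05, all of them cytosolic and higher, beside 3.64% of all genes. DESeq2 called 5 members, beside 27 of 14611 genes. Both tunicamycin samples were above all DMSO samples for 10 members, 9 of them cytosolic, beside 4.92% of all genes. AARS1 had 53.4 and 83.2 CPM in tunicamycin, against 29.5, 25.5, 35.9 and 27.4 CPM in DMSO (log2 1.20 ± 0.21 SE, edgeR adjusted p = 0.44). WARS1 had 45.0 and 50.7 CPM in tunicamycin, against 23.9, 19.0, 22.6 and 21.2 CPM in DMSO (log2 1.13 ± 0.18 SE, edgeR adjusted p = 0.378). Both values of each gene were above the DMSO range, though none passed after adjustment.

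The other members with an unadjusted p under 0.05 were YARS1 (log2 0.92), MARS1 (0.83), GARS1 (0.79), IARS1 (0.63), SARS1 (0.50) and EPRS1 (0.49). The summed cytosolic level was 1183 and 1299 CPM in tunicamycin, against 964, 952, 896 and 969 CPM in DMSO, and the mitochondrial sum was 537 and 581 CPM, against 547, 655, 539 and 561 CPM. In the ATF4 list 0 of 9 genes tested passed, with a sum of 541 to 571 CPM, against 271 to 362 CPM in DMSO. At 0.001 and 0.01 µM tunicamycin 0 members passed in edgeR or DESeq2, and 0% of all genes in edgeR, while 0 and 1 members had an unadjusted p under 0.05 (2.92% of all genes at 0.01 µM). Neither step between doses called a member, with 0% of all genes for 0.01 against 0.001 µM and 0.00557% for 0.1 against 0.01 µM (edgeR). For these steps 2 members (lower) and 7 members (higher at 0.1 µM) had an unadjusted p under 0.05, beside 1.79% and 2.53% of all genes.

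Brefeldin A, which blocks transport from the endoplasmic reticulum to the Golgi, was held in 1 sample at each dose. No member changed 2-fold at 0.001, 0.01 or 0.1 µM, beside 0.978%, 3.58% and 0.449% of all genes past the minimum. Against DMSO of run 4 alone VARS1 was 2-fold higher at 0.01 µM, beside 6.83% of all genes. At 0.1 µM, YARS1 and TARS1 had the largest ratios, both with 55.6 CPM, against 37.6 to 43.9 CPM for YARS1 and 34.2 to 43.5 CPM for TARS1 in DMSO (log2 0.49 and 0.48). Both lay above all DMSO samples.

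Of the tBHQ doses, 3 µM changed 1 member 2-fold (2.03% of all genes), and 30 and 300 µM changed 0 (2.49% and 2.13% of all genes). AARS1 had 59.6 CPM at 3 µM, against 25.5 to 35.9 CPM in DMSO (log2 1.01, 95% interval 0.87 to 1.15), and 43.8 CPM at 30 µM. The call lies at the edge of the 2-fold rule and was lost with all cells or without DMSO replicate 3 (run 4) or 5 (run 6). Against DMSO of run 4 alone AARS1, QARS1 and VARS1 were 2-fold higher, beside 6.54% of all genes. At 300 µM 11 of 30 members past the minimum were below the lowest DMSO sample and 1 was above the highest, beside 30.4% and 10.8% of all genes. QARS1 was the furthest, with 19.5 CPM, against 26.6 to 55.6 CPM in DMSO (log2 -0.89, -1.28 to -0.54).

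Etoposide, a topoisomerase II inhibitor, called 0 members at 0.25, 2.5 and 25 µM in edgeR and DESeq2, beside 0% of all genes in edgeR, and so did its steps between doses in edgeR. Troglitazone at 50 µM called 0 members, beside 0.078% of all genes, and medium called 0, beside 0%, with DESeq2 also at 0 members for both. In these comparisons with DMSO 0 members had an unadjusted p under 0.05, and 0 and 1 in the etoposide steps (4.15% of all genes for 25 against 2.5 µM). The summed cytosolic level averaged 892 ± 79.3 CPM in troglitazone (SD, n = 4) and 968 ± 19.3 CPM in medium (SD, n = 3), against 945 ± 33.5 CPM in DMSO (SD, n = 4).

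The ratio of the summed cytosolic to the summed mitochondrial level brings the conditions onto 1 scale. It was 4.83 at 0.2 µM rotenone and 3.12 and 3.52 at 0.4 µM, against 1.76, 1.45, 1.66 and 1.73 in DMSO. It was 2.20 and 2.24 at 0.1 µM tunicamycin, 1.93 and 2.50 at 20 µM cycloheximide and 1.80 and 2.52 at 2 µM cycloheximide. The highest ratio in the remaining conditions was 2.00, in the 1 sample of 3 µM tBHQ. Next came 1.95, in run 3 of 0.001 µM tunicamycin and in 0.001 µM brefeldin A. The lowest ratio, 1.21, was that of troglitazone in run 4, a sample with few mitochondrial UMIs, and DMSO and 0.2 µM cycloheximide of run 4 were the next lowest, with 1.45 each.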

How the data were processed

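Single-cell RNA was measured in HepaRG cells on the Parse Evercode platform. The authors deposited a matrix of counts of unique molecular identifiers (UMIs) per gene and cell, with tables of the genes and the cells. Per the labels, a pipeline aligned reads to GRCh38; the sources used here do not give its version, annotation or use of strand. The 8 deposited samples are sublibraries that each hold cells of all treatments, so the cell table's sample names, not the deposited samples, defined the groups. UMIs summed per cell equalled the listed total in all 12976 cells. No full barcode was repeated, and 822 well combinations occurred in more than 1 sublibrary.

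A cell was kept from 500 genes on if no more than 20% of its UMIs were mitochondrial (8406 cells). Kept cells were summed per sample name, and 9 of 47 sample names were dropped for holding under 30 of them. No doublets were removed. CPM values were computed from the deposited counts over all genes. Where a condition had 2 or more samples, it was compared with the 4 DMSO samples in edgeR 4.0.16 (filterByExpr, quasi-likelihood test, total counts as library size, R 4.3.3), at a Benjamini-Hochberg adjusted p of 0.05 over all genes tested. With 1 treated sample no test was run. Log2 ratios to the mean DMSO CPM are given with exact conditional binomial 95% intervals, which cover counting error only, and 2-fold changes were counted from 10 CPM and 50 UMIs in the higher condition. Alternatives were TMM and DESeq2 1.42.0 scaling, DESeq2 itself, gene and cell filters, 1 fit over all conditions, run as a block, each sample left out and, added after seeing the data, single samples against DMSO of the same run. Fits were tested on simulated data.

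Members and lists were chosen with earlier results of these data known. Per-sample values are given for the 10 cytosolic and 6 mitochondrial members with the largest changes among those called at 0.4 µM rotenone, for called members that went against their class, for WARS1, GARS1 and KARS1, and for up to 4 members in each other condition; others were named after their values were seen. Gene positions came from GENCODE 44 (GRCh38), matched by Ensembl identifier for all 35 members. Promoter sequences came from a table of RefSeq windows (GRCh38.p14), in which 30 of the 35 symbols were matched. Python 3.11.15 with numpy 2.4.6, pandas 2.3.3, scipy 1.17.1 and matplotlib 3.10.9 was used.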

Additional observations from a re-analysis of the deposited data

Results flagged for a closer look

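In groups of 4 samples, 10 of 70 combinations of member and group (35 members each in troglitazone and DMSO) held a sample whose gap to the nearest other sample was a larger share of the range than Dixon's 95% critical value. Chance flags about 1 in 20 independent groups. These 70 were not independent, because the 35 members of each condition share the same 4 samples, so that rate does not apply directly. In troglitazone, HARS1 was low in run 5 (24.6 CPM, the others 32.2 to 32.4, gap share 0.969) and TARS1 was low in run 4 (29.9, the others 36.2 to 37.3, 0.849). FARS2 (258, the others 145 to 156, 0.899) and NARS2 (31.9, the others 27.3 to 27.7, 0.914) were high in run 4. In DMSO, run 4 was high for HARS1 (38.0, the others 29.6 to 30.9, 0.839), YARS1 (43.9, the others 37.6 to 38.4, 0.877) and FARS2 (227, the others 163 to 170.2, 0.882). Run 5 was high for VARS1 (36.9, the others 14.7 to 17.4, 0.875) and VARS2 (21.8, the others 7.68 to 9.80, 0.849), and run 6 for MARS1 (32.4, the others 29.2 to 29.6, 0.898). The run 4 samples are those with few mitochondrial UMIs.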

How the results depend on the processing

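At 0.4 µM rotenone, the cytosolic falls numbered 1, and 0 under TMM, DESeq2 scaling and DESeq2, and 2 in 1 fit over all conditions. The mitochondrial rises numbered 4, and 7 under those scalings; the mitochondrial falls numbered 5, and 2 under TMM and 1 under DESeq2 scaling and DESeq2. WARS1 changed sign (log2 0.10 under TMM, 0.15 under DESeq2 scaling and DESeq2). Leaving out each sample gave 9 to 11 cytosolic rises, 1 cytosolic fall, 3 to 4 mitochondrial rises and 3 to 6 mitochondrial falls at 0.4 µM rotenone, and 3 to 9 rises at 20 µM cycloheximide. It gave 10 to 12 members 2-fold higher at 0.2 µM rotenone, 0 to 1 at 0.01 µM brefeldin A and 0 to 2 at 3 µM tBHQ, and 0 to 1 2-fold lower at 300 µM tBHQ. At 20 µM cycloheximide 7 members rose. At 0.1 µM tunicamycin 0 were called, and 5 by DESeq2 and 4 with no filter on low counts (over all genes 1 was called by edgeR, 27 by DESeq2 and 124 with no filter); at 2 µM cycloheximide 1 was called with no filter. DESeq2 also called 93 genes at 2 µM cycloheximide (edgeR 1), 63 in troglitazone (edgeR 14) and 19 at 25 µM etoposide (edgeR 0), and 0 to 2 elsewhere (edgeR 0). At 3 µM tBHQ 1 member was 2-fold higher, and 0 with all cells. With run as a replicate block, 15 of the 21 calls at 0.4 µM rotenone were kept: 8 cytosolic rises, 1 cytosolic fall, 3 mitochondrial rises and 3 mitochondrial falls, with KARS1, NARS1, QARS1, YARS2, LARS2 and WARS2 lost. The block kept 2 of 7 rises at 20 µM cycloheximide (FARSB and VARS1) and gave 5 calls at 0.1 µM tunicamycin. Over all genes it called 9751 of 19831 at 0.4 µM rotenone, 1840 of 18706 at 20 µM cycloheximide and 125 of 18577 at 0.1 µM tunicamycin. Deviations of treated and DMSO samples of the same run correlated positively in 21 of 27 pairs and over 0.1 in 13, from -0.08 to 0.24 (-0.08 and -0.04 for rotenone). Not every pair passed 0.1 in any condition with 3 or more, so the runs were not taken as pairs. Single samples were also set against DMSO of the same run only, an alternative added after seeing the data. There 1 member was 2-fold lower at 0.2 µM rotenone (20.0% of all genes). At 0.01 µM brefeldin A 1 was 2-fold higher (6.83% of all genes), and at 3 µM tBHQ 3 were (6.54%). With all cells the ratio of class sums moved by less than 1 SD of DMSO (0.139), except in troglitazone of run 3. There it went from 1.86 to 1.64. Depth limits the low members: PARS2 had 9 UMIs at 0.001 µM brefeldin A.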
